A study of Mus musculus with 23 samples.

Results

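The RNAs described here are 37 transcripts that stood at least 4-fold higher in the ribosome-bound fraction than in total mRNA of wild-type (WT) mouse germinal vesicle (GV) oocytes, of 56196 genes in the count table. Members were selected on measured values of 4 WT libraries. A gene was a member when its CPM (counts per M counts of the library, by column total) gave a ratio of translation over transcription of at least 4 in WT pair 1 and in WT pair 2. For the ratio, 0.5 CPM was added to each value, and at least 20 CPM was required in both WT translation libraries. Symbols of predicted genes (Gm followed by a digit), Nlrp genes and Vmn1r receptors were left out. The rule took 46 genes before and 37 after this exclusion, all 9 that it removed being predicted genes, and 5532 genes reached the CPM minimum. Since the members were chosen by the WT ratios and WT translation levels, those values are a description and carry no test.

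A GV oocyte is the fully grown oocyte before meiosis resumes, with an intact nucleus. The study profiled them by T&T-seq, which reads ribosome-bound mRNA (translation, captured with RiboLace) and total mRNA (transcription) of the same specimen, with 2 specimens labelled WT and 2 labelled Eif4enif1+/- (het). Total mRNA was also sequenced from 3 libraries each of WT 1-cell, het 1-cell, WT 2-cell, het 2-cell and arrested het 1-cell embryos, the last 3 groups after 24 h of culture in vitro. Whose genotype an embryo label gives, its own or its mother's, is not stated in the labels, and they do not say how many oocytes or embryos entered a library or that replicates came from separate animals. The p-values therefore measure the spread between these libraries, which may in part be technical.

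A GV oocyte transcribes little and works from stored maternal mRNA, so which of its proteins are made depends on which stored mRNAs are loaded onto ribosomes. Masked mRNAs are held with short poly(A) tails by RNA-binding proteins and are recruited when the oocyte resumes meiosis, in part through the cytoplasmic polyadenylation element (CPE), a U-rich motif close to the end of the 3′ untranslated region (UTR). Eif4enif1 encodes 4E-T, which binds the cap-binding factor eIF4E and takes part in storing and repressing mRNA in germ cells. An mRNA with a high ribosome-bound share relative to its total is at the opposite end from a masked one. The 2 fractions were amplified as separate libraries, so a ratio compares shares of counts and not molecules.

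GV libraries held 3.62 to 50.5 M counts, the shallowest being het transcription library 1, and embryo libraries 5.60 to 40.4 M. Eif4enif1 itself was at 217 and 211 CPM in WT transcription libraries, against 96.4 and 101 CPM in het ones. By column total it was at 107, 128 and 159 CPM in WT 1-cell libraries, and the het 1-cell libraries held 146, 58.1 and 149 CPM, so 2 of them lay inside the WT range. The embryo fits below further divide CPM by a TMM factor, which scales for library composition. It was 2.02 and 2.15 in het 1-cell libraries 1 and 3, against 0.797 to 0.897 in the other 1-cell libraries. Scaling by it lowers the values of these 2 and raises the others, so the overlap holds by column total only. By column total, Eif4enif1 was at 74.3, 60.9 and 80.2 CPM in WT 2-cell, 57.5, 30.3 and 37.9 CPM in het 2-cell and 69.6, 28.9 and 50.5 CPM in arrested libraries. The oocyte markers Gdf9, Zp2, Zp3 and Bmp15 were at or above 1184 CPM in every GV library, and the granulosa markers Foxl2, Amh and Fshr were at or below 4.49 CPM. Other granulosa markers were higher in GV libraries, with Cyp19a1 at 25.2 to 45.6 CPM, Amhr2 at 1.04 to 24.6 CPM and Kitl at 3.22 to 9.89 CPM. In 1-cell libraries Cyp19a1 was at 39.4 to 119 CPM, Kitl at 2.62 to 26.7 CPM and Amhr2 at 0 CPM. Amhr2 was at 14.8 to 32.7 CPM in 2-cell libraries. The 23 granulosa markers summed to 235 and 376 CPM in WT translation, 122 and 210 in WT transcription, 680 and 1185 in het translation and 505 and 360 in het transcription libraries, so they moved with fraction and with genotype. Their part in the results was not tested. The 2 het 1-cell libraries with the high Eif4enif1 values by column total, 1 and 3, stood apart, with 6.34% and 5.53% of their counts in the 100 most abundant genes against 32.1% to 38.0% in the other 4 1-cell libraries. Counts for comparisons with het 1-cell embryos are given with and without both.

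Of the 37 RNAs, 36 are annotated as protein-coding. The remaining one is Malat1, a nuclear long noncoding RNA, for which the label of an enriched mRNA does not hold. Malat1 overlaps the predicted gene Gm37376 on the opposite strand, which met the thresholds itself and was left out by its symbol. Exons of 18 members overlap an annotated neighbour, 16 of them on the opposite strand. The labels name no step that marks the strand, and reads of those 16 cannot be told apart from reads of the antisense partner. The members lie on 17 chromosomes, 6 of them on chromosome 2, and the closest pair, Pla2g15 and Cdh3 on chromosome 8, starts 360 kb apart.

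Proteins of the lysosome, the secretory pathway and cell membranes made up the most populous group by textbook role, with 16 members. Ctsd (a lysosomal protease), Psap (the precursor of the saposins, which help to degrade sphingolipids) and Pla2g15 (a lysosomal phospholipase) belong to the lysosome. Ncstn encodes nicastrin, a subunit of the membrane protease gamma-secretase. Fstl1 is a secreted glycoprotein, Qsox1 a sulfhydryl oxidase of the secretory pathway, Col6a6 and Col9a3 are collagen chains, and Cdh3 is P-cadherin. Tspan18 (a tetraspanin), Lmbr1l, Tmem184b and the solute carriers Slc23a2 (a vitamin C transporter), Slc12a9 and Slc35f3 span membranes. Cell-cycle and transcription proteins had 4 members, Ccnd2 (cyclin D2), E2f1, Neurog3 and Ewsr1. GTPase, actin and kinase signalling had 6, the small-GTPase regulators Net1 (an exchange factor) and Arhgap11a (a GTPase-activating protein), the kinase Dapk3, the actin-binding Synpo, titin (Ttn) and Akt1s1, an inhibitor of mTORC1. The metabolic enzymes were Acox3 (peroxisomal fatty acid oxidation), Aldh2 (mitochondrial aldehyde dehydrogenase) and Pfkl (phosphofructokinase). Among the other 8 were the RNA-binding protein Unk, the TRIM family member Trim35, the major vault protein Mvp, Maged1 and Tspyl4. The grouping was made with the members known and was not tested.

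In WT oocytes the ratios ran from 4.08 to 29.1 in pair 1 (median 5.68) and from 4.02 to 17.8 in pair 2 (median 6.51), where the 5532 genes at the CPM minimum had medians of 1.10 and 0.90. Lmbr1l had the highest ratio in pair 1 and, after Psap, the second highest in pair 2, with 75.1 and 46.1 CPM in WT translation and 2.1 and 2.58 CPM in WT transcription. Its ratios were 29.1 and 15.1. The other members with a ratio above 20 in pair 1 were Synpo (27.4 and 11.0), Tspan18 (26.05 and 12.6), Fstl1 (21.3 and 10.4) and Ccnd2 (20.7 and 11.8). Ccnd2, whose product drives entry into S phase, reached 249 and 286 CPM in translation against 11.5 and 23.9 in transcription. These 5 RNAs were low in total mRNA, between 2.1 and 23.9 CPM. Slc23a2 was the member with the highest translation CPM, at 714 and 558 against 158 and 136 in transcription, and it passed with ratios of 4.51 and 4.10. CPM is not per length, so levels of different genes are not compared.

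Pairs did not give the same size of ratio for every member. Psap had ratios of 6.39 and 17.8, and Net1 had 8.61 and 4.02. Malat1 (7.29 and 7.46) and Mvp (4.74 and 4.89) were nearly equal in both pairs. Just inside the threshold, by the smaller WT ratio, lay Net1 at 4.02, Tmem184b at 4.03 and Unk at 4.08. Just outside lay Sprtn at 3.997, Hnrnpm at 3.99 and Ganab at 3.98.

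**Figure D1:**
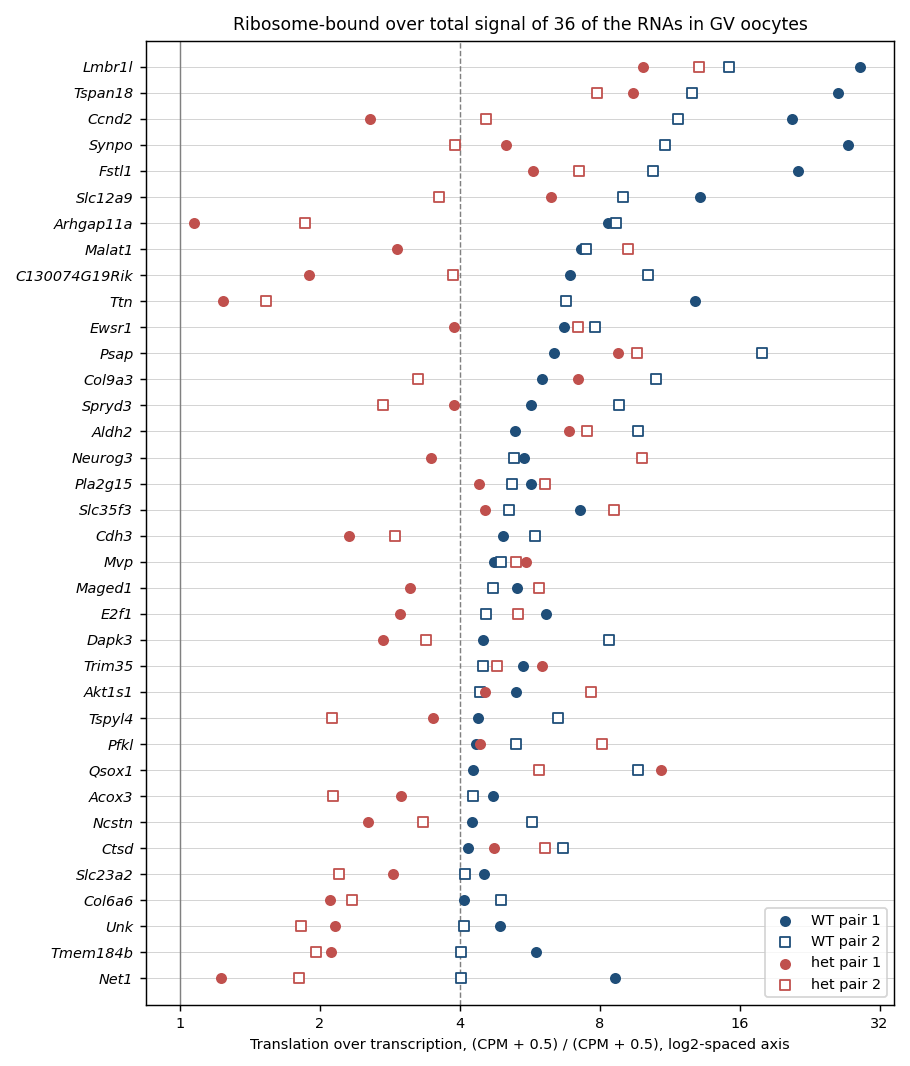
Ratio of translation over transcription CPM (0.5 added to each, log2-spaced axis) of 36 of the 37 RNAs in 2 WT and 2 het pairs of GV libraries; the dashed line marks the ratio of 4 that both WT pairs had to reach. Every het point lies above 1, and Arhgap11a, Ttn and Net1 have the lowest het points.

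The het libraries had no part in the choice, and in them the question was whether the same RNAs were also higher in the ribosome-bound fraction. All 37 had a ratio above 1 in both het pairs. Of the 5534 genes with at least 20 CPM in both het translation libraries, 38.9% did in pair 1 and 52.8% in pair 2. By edgeR's quasi-likelihood test on the 4 het libraries, 34 of 37 were called higher in translation than in transcription (adjusted p under 0.05 over 19868 genes), while 0 were called lower. Over all genes tested 10.7% were called higher and 4.6% lower. The median log2 difference was 2.37 over the members and 0.01 over all genes. All 37 passed the expression filter, and all 37 had an unadjusted p under 0.05 in the direction of translation.

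Lmbr1l had the largest log2 difference of the 37 in het oocytes. It was at 26.3 and 38.3 CPM in het translation and at 2.21 and 2.47 CPM in het transcription. The groups did not overlap, and the log2 difference was 3.85 (SE 0.34, adjusted p = 2.19e-05, edgeR). Psap had 35.3 and 38.2 CPM in het translation against 3.59 and 3.53 in transcription (log2 3.49, SE 0.31, adjusted p = 2.36e-05, edgeR). The fractions did not overlap for Psap either. Tspan18 had 40.7 and 38.4 CPM against 3.87 and 4.44 (log2 3.34, SE 0.31), and Fstl1 86.6 and 82.9 CPM against 14.6 and 11.0 (log2 2.89, SE 0.29). These 4 had the smallest p of the 37 and encode membrane, lysosomal or secreted proteins. Qsox1 (3.31), Aldh2 (3.08), Pfkl (2.99), Slc35f3 (2.95) and Neurog3 (2.91) had larger log2 differences than Fstl1. The shallow het transcription library 1 held few counts of the most enriched RNAs. Lmbr1l, Psap, Tspan18 and Qsox1 had 8, 13, 14 and 11 counts there, against 49, 70, 88 and 73 in library 2. All 16 members of the lysosomal, secretory and membrane group were called, beside 34 of all 37. The log2 differences of the 16 ran from 1.14 (Tmem184b) to 3.85, with a median of 2.58.

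The 4 cell-cycle and transcription members were called as well. E2f1, a transcription factor of S-phase genes, was at 51.0 and 62.3 CPM in het translation against 16.8 and 11.3 in transcription (log2 2.18, SE 0.29). Neurog3, a basic helix-loop-helix factor, gave 2.91, the RNA-binding protein Ewsr1 2.57 and Ccnd2 1.96. The 3 metabolic enzymes were called with 3.08 for Aldh2, 2.99 for Pfkl and 1.53 for Acox3. The 8 others were called too, from Mvp at 2.65 to Unk at 1.13. Malat1 had 1692 and 2081 CPM in het translation against 576 and 226 in transcription (log2 2.37, SE 0.40), so a nuclear RNA was called in the ribosome-bound fraction beside the mRNAs.

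Only the signalling group was split, with 3 of 6 called: Akt1s1 (2.78), Synpo (2.39) and Dapk3 (1.79). Arhgap11a, which acts on a small GTPase in cell division, had 25.5 and 41.0 CPM in het translation against 23.7 and 21.9 in transcription (log2 0.65, SE 0.27, adjusted p = 0.114, edgeR). Net1 had 31.9 and 60.1 CPM against 25.96 and 33.2 (log2 0.71, SE 0.29, adjusted p = 0.105). Ttn had 43.6 and 43.5 CPM against 35.1 and 28.2 (log2 0.61, SE 0.26, adjusted p = 0.123). The fractions overlapped for none of these 3 except Net1, whose translation library 1 lay below transcription library 2. With the specimen pairing as a block 36 were called, beside 3215 genes higher and 1908 lower over all 19868. Net1 (adjusted p = 0.0228, edgeR) and Arhgap11a (0.0470) gained the call and Ttn (0.0599) did not. Without het translation library 1, Acox3, Tspyl4, Unk and Tmem184b lost it, leaving 30.

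The ratios of the members were on the whole lower in het than in WT oocytes. Het ratios had a median of 3.88 in pair 1 (1.07 to 10.8) and 4.56 in pair 2 (1.53 to 13.1). In pair 1, 17 members reached a ratio of 4, in pair 2, 19, and in both, 13, against 0.976%, 2.13% and 0.669% of the 5534 genes with at least 20 CPM in both het translation libraries. Both het ratios lay below both WT ratios for 20 of the 37 members and above them for 1, where 23.9% of the 5532 genes at the WT CPM minimum lay below and 19.3% above. The rule applied to the het libraries in place of the WT libraries also took 37 genes, 12 of them shared, which is 32.4% of each list. Those 37 het-chosen genes showed the mirror image: their median ratios were 4.99 and 6.09 in het and 3.80 and 4.49 in WT pairs, and both WT ratios lay below both het ratios for 17 of them, against 21.8% of the 5534 genes at the het CPM minimum. A lower ratio in the genotype that did not choose the list was thus measured in both directions, and no test of genotype was made on either list. The 12 shared RNAs were Akt1s1, Aldh2, Ctsd, Fstl1, Lmbr1l, Mvp, Pfkl, Pla2g15, Psap, Qsox1, Slc35f3 and Tspan18. In them the median ratios were 5.49 and 8.16 in WT and 5.65 and 7.59 in het pairs.

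By fraction, the translation CPM of 25 members was lower in both het than in both WT libraries, that of 3 higher (Malat1, Dapk3 and Maged1) and that of 9 overlapped. Among the 5532 genes at the CPM minimum 28.8% lay lower and 20.5% higher. The median log2 ratio of het over WT was -0.72 over the members and -0.08 over those genes. In transcription 8 members lay lower in het, 13 higher and 16 overlapped (29.4% and 25.3% of the 5532 genes), with medians of -0.05 and -0.03. These values use the libraries that chose the members and are a description only.

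Slc23a2 was at 714 and 558 CPM in WT translation and at 354 and 315 CPM in het translation libraries, while its transcription values (158 and 136, 123 and 143 CPM) overlapped. Spryd3 had 139 and 114 CPM in WT against 54.0 and 34.6 in het translation. In both, the 2 genotypes were apart in translation alone. Net1, Arhgap11a and Ttn differed in opposite directions in the 2 fractions, and so did Synpo, Cdh3 and C130074G19Rik, which were called in het oocytes. Arhgap11a translation was at 99.3 and 69.1 CPM in WT and 25.5 and 41.0 CPM in het oocytes, but its transcription was at 11.5 and 7.51 CPM in WT and 23.7 and 21.9 CPM in het oocytes. Ttn transcription was 7.28 and 6.49 CPM in WT and 35.1 and 28.2 CPM in het oocytes, as its translation stood at 99.5 and 46.7 against 43.6 and 43.5 CPM. Ccnd2 transcription was 11.5 and 23.9 CPM in WT and 49.7 and 57.8 CPM in het, with overlapping translation values (249 and 286 against 128 and 266 CPM). Malat1 was higher in het in both fractions, from 270 and 301 to 1692 and 2081 CPM in translation and from 36.5 and 39.9 to 576 and 226 CPM in transcription. Ccnd2 and Malat1 are also RNAs of somatic cells. The granulosa marker sums given above were higher in het in both fractions, as Malat1 was, while Ccnd2 was apart in transcription alone. In bulk samples, a change in the number of cells of a type and one in RNA per cell cannot be told apart. The part of somatic RNA in these values was not tested.

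**Figure D2:**
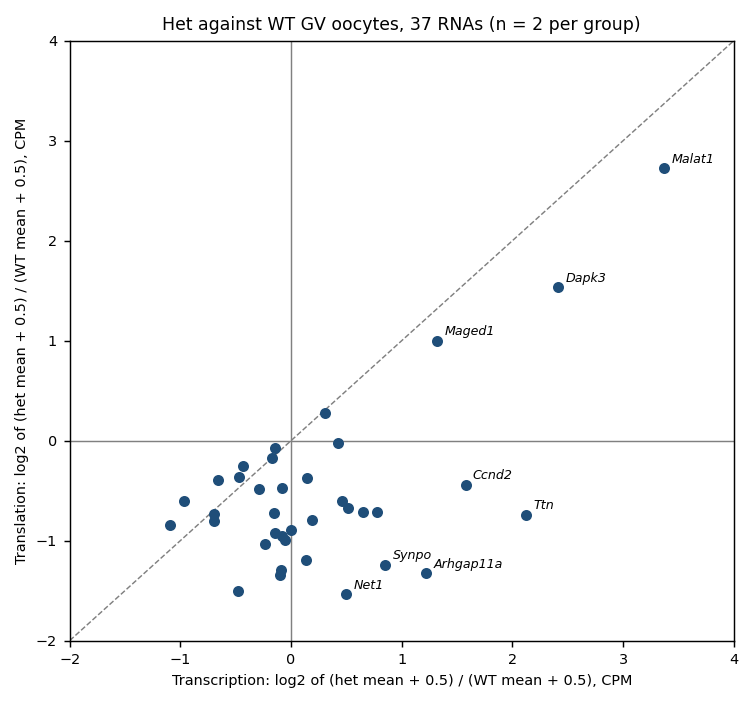
Log2 ratio of the mean het over the mean WT CPM (0.5 added to each mean, n = 2 libraries per group) in GV translation (vertical axis) against transcription (horizontal axis) for the 37 RNAs; the dashed line marks equal ratios. Most points lie below the horizontal zero line (33 of 37) and are spread about zero along the horizontal axis, with Malat1, Dapk3 and Maged1 at upper right.

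The rule used no sequence. The 36 protein-coding members had a median GC content of 56.4% in the coding sequence of 1 reference transcript each, against 51.5% in 5348 other genes at the CPM minimum, and 34 of 36 lay above the latter median. With the other genes split into 5 bins of equal size by coding GC, the highest bin held 16 members and the next 13, then 5, 1 and 1. The 3′ UTR was likewise richer in GC (50.5% against 43.6%). Coding sequences were longer (median 1617 against 1266 bases), as were 3′ UTRs (1263 against 888 bases) and 5′ UTRs (228 against 170 bases). These are descriptions of a chosen list. Over these other genes the median log2 ratio was also higher in each higher bin in 3 of 4 pairs. In het pair 1 it went from -0.51 in the lowest to 0.09 in the highest bin, and in het pair 2 from -0.30 to 0.46. In WT pair 1 it went from 0.02 to 0.24. In WT pair 2 it went from -0.26 to -0.07, with the fourth bin highest at -0.05. The GC content of the amplified cDNA goes with that of the transcript, and its part in the ratios was not tested.

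The members with the lowest coding GC content, Arhgap11a (45.3%) and Ttn (47.3%), were 2 of the 3 that were not called in het oocytes, and the third, Net1, was at 52.3%. Fstl1 at 51.7% was called with a log2 difference of 2.89.

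**Figure D3:**
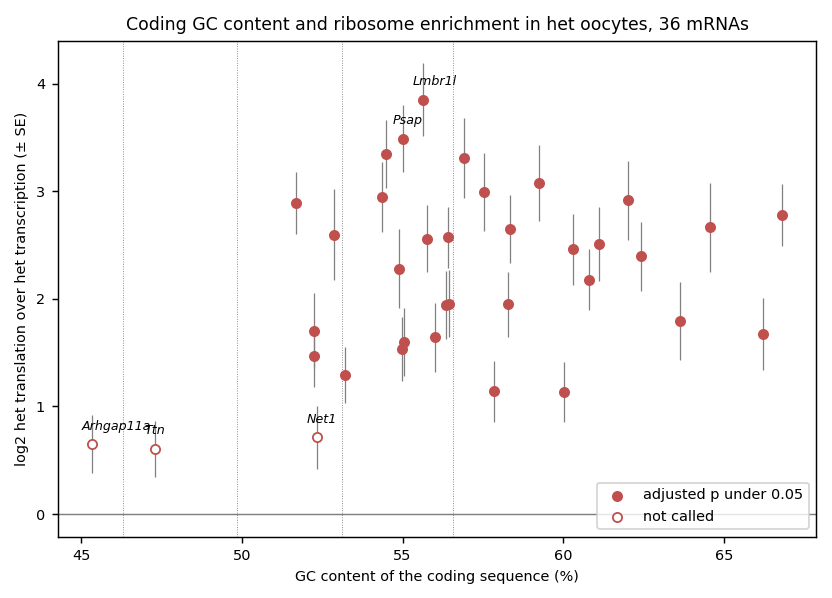
GC content of the coding sequence (horizontal axis, %) against the log2 difference of het translation over het transcription (vertical axis, ± SE from edgeR on 4 libraries) for the 36 protein-coding members; filled points were called, and dotted lines part the 5 bins of the other genes at the CPM minimum. The open points, Arhgap11a, Ttn and Net1, sit lowest, between 0.61 and 0.71.

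CPE letters near the 3′ end were searched because this motif is the textbook handle of stored oocyte mRNAs. The last 200 bases of the 3′ UTR were read on the transcript strand only, for TTTTAT and TTTTAAT, which do not contain each other. They were found in 7 of 35 members with a 3′ UTR (20%) and in 1537 of 5294 other genes (29.03%). The windows below are 30 bases, 5′ to 3′, from the transcripts of the GENCODE M21 annotation (GRCm38, equal to mm10), with the motif in capitals. Shown are the members not called in het oocytes that hold the letters (Net1 and Arhgap11a), the 2 holders that fell by the 2-cell stage with the smallest p (Ncstn and Slc23a2), and Tspan18 as a strongly enriched holder.
Net1: atttaattttttTTTTATtgtaaagtagtt
Net1: tttagtatttgcTTTTATttttttacattg
Arhgap11a: taaactggaaaaTTTTAATcaagttgtttt
Ncstn: ctcagttgtactTTTTATtattaaactata
Slc23a2: tagagaaagctaTTTTATtctgtattttta
Tspan18: caagtctcccctTTTTATattctatattaa

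All 6 windows lie in 3′ UTRs on the minus strand. The Net1 windows are at chr13:3883390-3883419 and chr13:3883360-3883389, that of Arhgap11a at chr2:113831632-113831661 and that of Ncstn at chr1:172066106-172066135. The Slc23a2 window is at chr2:132052533-132052562, beside a second match in this gene, and the Tspan18 window at chr2:93201795-93201824. Trim35 and Slc12a9 hold the letters as well. The Net1 motifs start 75 and 45 bases and the Arhgap11a motif 104 bases before the annotated 3′ end. A match is a description of letters and shows no bound factor. The holders had log2 differences between 0.65 (Arhgap11a) and 3.34 (Tspan18) in het oocytes, so holders were among the least and the most enriched members.

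None of the gene lists set for the tissue and treatment shares a member with the 37 RNAs. These lists were also chosen with earlier results of these data known. In the het comparison of translation over transcription, 4 of 51 tested translational-control genes were called higher and 8 lower (median log2 -0.05). Cpeb1, which binds the CPE, was higher (1.04, SE 0.30), but Cpeb4 (-1.70, SE 0.38) and Cpeb3 (-0.95, SE 0.30) of the same list were lower. The translation initiation helicase Eif4a1 (-1.90, SE 0.29) and Ybx1, a packaging protein of stored mRNA (-1.60, SE 0.26), were lower too. Of 34 mRNAs known to be recruited at maturation 4 were higher, among them Plk1 (1.54) and Cdc20 (1.39), and 4 lower (median 0.02). Of 29 genes of endoplasmic reticulum translocation and folding, whose products receive secreted and membrane proteins, 8 were higher and 2 lower (median -0.18). The chaperone Hspa5 (1.99, SE 0.32) and the translocon channel Sec61a1 (1.99, SE 0.30) had the smallest p. Of 21 granulosa markers tested 7 were higher and 0 lower (median 0.91), and of 20 oocyte markers 6 and 1 (median 0.54). All-gene percentages for this comparison are given above.

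After fertilization the 37 RNAs were read in total mRNA only. GV and embryo tables were made separately, so their CPM values are set side by side with no test. In 22 members all 3 WT 1-cell libraries lay below both WT GV transcription libraries, and in 1 (Ttn) above, against 53.5% and 26.6% of the 5532 genes at the CPM minimum. The median log2 ratio of the means was -1.32 over the members and -0.65 over those genes. Ccnd2 was at 11.5 and 23.9 CPM in GV transcription and at 0, 0.83 and 0 CPM in 1-cell libraries, with 15 counts in all. Aldh2 went from a mean of 20.9 to 0.65 CPM and Mvp from 28.7 to 2.51 CPM. Slc23a2 did not follow them, with means of 147 CPM in GV and 156 CPM in 1-cell libraries, and Ncstn (34.8 and 51.3 CPM) overlapped as well.

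Between the WT 1-cell and WT 2-cell stage 6 members rose and 7 fell (edgeR over 15 embryo libraries, 23656 genes, all 37 members tested), where 28.5% of all genes rose and 17.9% fell. The median log2 change was 0.46 over the members and 0.59 over all genes, and with RLE in place of TMM scaling the all-gene median was 0.76 with the same counts of 6 and 7 members. Embryo levels below are TMM-scaled CPM. The members that fell were 5 of the 16 lysosomal, secretory and membrane proteins plus Tspyl4 and Spryd3. No member of that group of 16 rose.

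Ncstn had 29.2, 60.5 and 87.2 CPM in WT 1-cell and 4.63, 3.35 and 4.90 CPM in WT 2-cell libraries. It fell by 3.78 on the log2 scale (SE 0.59, adjusted p = 2.67e-04, edgeR). Slc23a2 had 115, 150 and 274 CPM before and 34.0, 35.3 and 25.7 CPM after (log2 -2.51, SE 0.39, adjusted p = 2.72e-04). The stages were apart for both genes, and both held their calls in all 12 alternative analyses. Tspyl4 went from 10.3, 6.03 and 12.7 CPM to 0.35, 0.75 and 0.66 CPM (log2 -4.04, SE 0.81, adjusted p = 0.00136), and Fstl1 from 9.11, 8.21 and 21.3 CPM to 2.38, 1.37 and 1.46 CPM (log2 -2.89, SE 0.64, adjusted p = 0.00244). Slc12a9 (-3.19), Slc35f3 (-3.24) and Spryd3 (-1.80) fell with adjusted p between 0.0275 and 0.0283, and their calls were lost in 3, 6 and 8 of the 12 alternatives.

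Of the members that rose, Unk had the smallest p. It was at 2.53, 3.59 and 6.27 CPM in WT 1-cell and at 60.4, 36.9 and 43.6 CPM in WT 2-cell libraries (log2 3.50, SE 0.65, adjusted p = 8.10e-04, edgeR). C130074G19Rik had 3 counts in all WT 1-cell libraries and 2315 in WT 2-cell libraries, a ratio of 396 (135 to 1922, 95% exact interval, which covers counting error only). Ccnd2 reached 20.6, 21.4 and 12.8 CPM after 0, 0.96 and 0 CPM (log2 5.82, SE 1.34, adjusted p = 0.00394), so the cyclin that was hardly detected in 1-cell embryos was present in every 2-cell library. Dapk3 (1.49, adjusted p = 0.0160), Maged1 (4.45, 0.0366) and Arhgap11a (1.32, 0.0454) rose as well. Their calls were lost in 3, 7 and 9 of the 12 alternatives. Of the fixed lists, 20 of 26 tested 2-cell-stage genes rose and 1 fell, 1 of 21 oocyte markers rose and 13 fell, and 1 of 34 maturation-recruited mRNAs rose and 15 fell. Markers of other cell types moved as well. Of the oviduct markers 6 of 9 tested rose and 1 fell, of the blood markers 2 of 4 rose and 1 fell, and of the granulosa markers 4 of 15 rose and 2 fell. The 11 oviduct markers summed to 5.85 to 10.1 CPM in WT 1-cell and 299.8 to 414 CPM in WT 2-cell libraries, and the 8 blood markers to 24.3 to 58.5 and 397 to 627 CPM. Some of these genes, such as the keratins Krt8 and Krt18, are also made by early embryos. Their part in the members' changes was not tested.

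**Figure D4:**
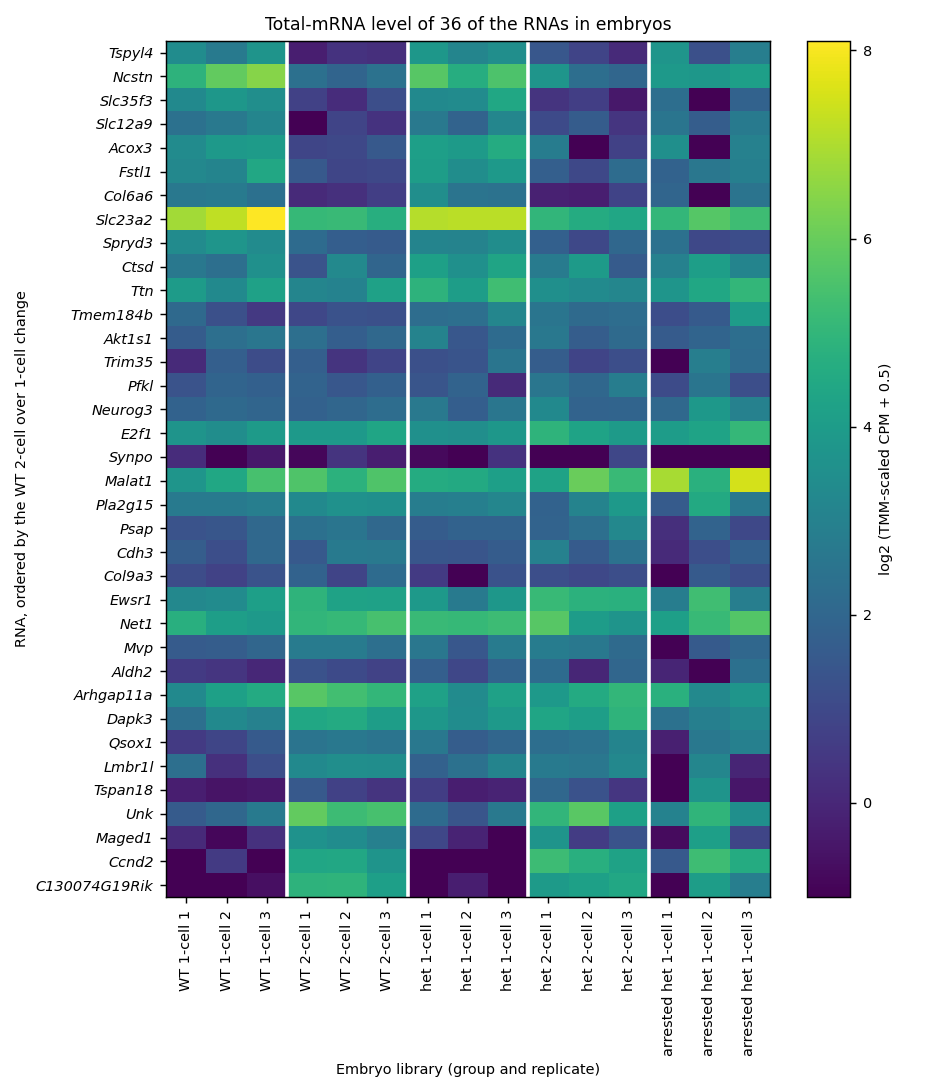
Total-mRNA level of 36 of the 37 RNAs (rows, ordered by the WT change from 1-cell to 2-cell) in 15 embryo libraries (columns, 3 per group), as log2 of TMM-scaled CPM plus 0.5. The bottom rows (Ccnd2 and C130074G19Rik) turn from dark to bright between 1-cell and 2-cell groups and are dark in arrested library 1 relative to arrested libraries 2 and 3, while the top rows (Tspyl4 to Fstl1) dim.

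The same interval in het embryos gave 3 members that rose and 8 that fell, against 22.8% and 13.9% of all genes. Unk had 4.07, 2.15 and 5.83 CPM in het 1-cell and 31.5, 53.9 and 17.4 CPM in het 2-cell libraries (log2 3.09, SE 0.64, adjusted p = 0.00247, edgeR). Ccnd2 had 0 counts in het 1-cell libraries and 37.4, 26.1 and 18.6 CPM in het 2-cell libraries, at least 349-fold higher when the 1-cell group is put at 3 counts in all, the limit that 0 counts allow. C130074G19Rik (log2 7.27) was the third. Slc23a2 fell from 136, 143 and 142 CPM to 31.0, 23.6 and 20.7 CPM (log2 -2.48, SE 0.39, adjusted p = 5.10e-04). Ncstn (-2.57), Tspyl4 (-2.98), Fstl1 (-2.28), Slc35f3 (-4.22), Ttn (-1.52), Col6a6 (-3.37) and Spryd3 (-1.71) fell too. The calls of Ttn (adjusted p = 0.0304, edgeR), Col6a6 (0.0423) and Spryd3 (0.0432) were lost in 7, 9 and 10 of the 12 alternatives. Those of Ncstn and Tspyl4 were each lost in 1, and those of Fstl1 and Slc35f3 in 2. Without het 1-cell libraries 1 and 3 there were 2 that rose (Ccnd2 and Unk) and 1 that fell (Slc23a2), where het 1-cell is left with 1 library, assumed to vary like the other groups. For the difference of the 2 changes edgeR called 0 members and 1 gene of 23656, which was higher (0.00423%). Ccnd2 alone among the 37 had an unadjusted p under 0.05 in that test, with 1-cell counts of 0 in het and 0, 15 and 0 in WT libraries.

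**Figure D5:**
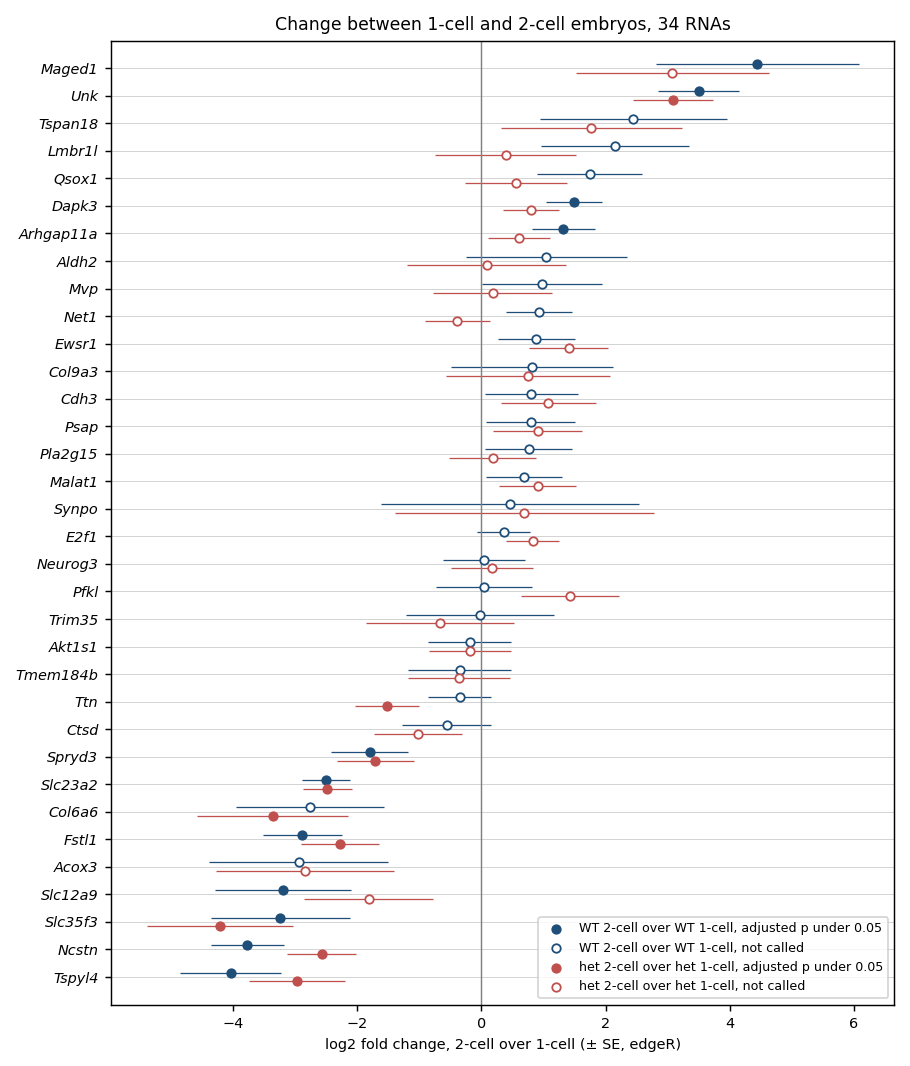
Log2 fold change from 1-cell to 2-cell embryos (± SE, edgeR over 15 libraries, n = 3 per group) of 34 of the RNAs in WT (blue) and het (red) libraries. Filled points were called. Ccnd2 and C130074G19Rik are left out because each has a 1-cell group with 3 counts or fewer in all. Unk is filled at right in both genotypes (3.50 and 3.09), and Ncstn, Slc23a2, Tspyl4, Fstl1, Slc35f3 and Spryd3 are filled at left in both.

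Het and WT embryos of the same stage were compared to ask whether total levels of these RNAs depend on the genotype label. At the 1-cell stage edgeR called 0 members and 0% of all genes in either direction, also without het 1-cell libraries 1 and 3. Without het 1-cell library 2, which leaves the 2 libraries that stand apart, edgeR called 0 members but 6 genes higher and 278 lower. DESeq2 called 0 members, with 45 genes higher and 34 lower in het. In edgeR 1 member had an unadjusted p under 0.05. That member was Ccnd2, with 0 counts in het libraries against 0, 15 and 0 in WT libraries, so its difference rests on 1 WT library. Pooled over libraries, Ccnd2 was at least 3.85-fold lower against the same limit, which covers counting error only. Ttn came next, at 15.5, 9.56 and 18.0 CPM in WT libraries and 29.1, 16.1 and 39.7 CPM in het ones, which overlapped (log2 0.98, SE 0.51, not called). At the 2-cell stage edgeR called 0 members and 0.00423% of genes (1, higher), DESeq2 called 0 members with 88 genes higher and 33 lower, and 0 members had an unadjusted p under 0.05 in edgeR. The smallest p values belonged to Arhgap11a, with 52.9, 39.9 and 32.4 CPM in WT libraries and 14.2, 23.0 and 32.4 CPM in het ones (log2 -0.85, SE 0.50), and to Tmem184b (log2 1.39, SE 0.84). Neither was called, and a p that misses the threshold does not show that levels were alike.

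Arrested het embryos, which were still at 1 cell after 24 h, were set against het 1-cell embryos and against het 2-cell embryos of the same culture time. These comparisons share the arrested libraries. Against het 1-cell embryos 4 members were higher and 1 lower (9.97% and 3.91% of all genes). Ccnd2 was at 2.45, 38.5 and 23.7 CPM in arrested libraries after 0 counts in het 1-cell libraries, at least 320-fold higher. Malat1 had 121, 26.8 and 181 CPM against 23.7, 22.7 and 17.0 CPM (log2 2.37, SE 0.65, adjusted p = 0.0256, edgeR). Unk had 7.63, 30.9 and 11.2 CPM against 4.07, 2.15 and 5.83 CPM (log2 2.04, SE 0.62, adjusted p = 0.0402). C130074G19Rik had 0, 16.1 and 6.88 CPM and overlapped with het 1-cell libraries (0, 0.36 and 0 CPM). Arrested library 1 was thus the lowest of its group for Ccnd2, Unk and C130074G19Rik. It was also the lowest for the summed oviduct markers (8.50, 319 and 133 CPM) and blood markers (21.9, 409 and 183 CPM), of which 5 of 9 and 2 of 4 tested were called higher in arrested than in het 1-cell embryos. Of 26 tested 2-cell-stage genes, 20 were called higher and 0 lower in the same comparison (median log2 5.85). The part of these lists in the members' changes was not tested. Slc23a2 was lower, at 31.7, 52.2 and 38.0 CPM against 136, 143 and 142 CPM (log2 -1.79, SE 0.38, adjusted p = 0.00862, edgeR). Of the 12 alternatives, 7 ended the call of Malat1, 7 that of Unk and 4 that of C130074G19Rik. The calls of Ccnd2 and Slc23a2 were each lost in 2. Without het 1-cell libraries 1 and 3, and with only these 2 groups in the fit, 0 members were called. The all-gene counts fell with them, from 2358 higher and 925 lower to 19 and 85 without both libraries and to 0 and 0 with only these groups.

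Against het 2-cell embryos 0 members were higher and 1 lower (3.85% and 4.55% of all genes), with 3 members at an unadjusted p under 0.05 in each direction and 1 called higher by DESeq2. The all-gene counts of 910 higher and 1076 lower rest on 2 libraries: they were 2 and 2 without het 2-cell library 2 and 0 and 2 without het 2-cell library 3. Dapk3, a kinase of myosin light chain, had 4.80, 7.05 and 8.96 CPM in arrested against 20.1, 16.7 and 30.01 CPM in het 2-cell libraries (log2 -1.68, SE 0.46, adjusted p = 0.0374, edgeR). The groups did not overlap, but the call was lost in 7 of 12 alternatives, with adjusted p between 9.43e-05 and 0.299. Tspyl4 had the next smallest p, at 12.9, 1.85 and 6.88 CPM against 2.26, 1.30 and 0.56 CPM (log2 2.38, adjusted p = 0.0618). Synpo had 0 counts in arrested libraries and 0, 0 and 28 in het 2-cell libraries, so its difference rests on 1 library. Pooled over libraries, Synpo was at least 6.13-fold lower, a bound that covers counting error only, and was not called (adjusted p = 0.179, edgeR).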

How the data were processed

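Per gene, raw read counts were deposited by the authors for 56196 genes, in 1 table of 8 GV libraries and 1 table of 15 embryo libraries. Per the submitters' processing notes, the tools were Trim Galore 0.6.4, HISAT2 2.1.0 and featureCounts 1.6.5, on the mm10 build. Not given in the sources used here are the strand setting and the handling of duplicate and multi-mapping reads. No molecular identifiers are named, so intervals and floors cover counting error only. With the version suffix, 54587 identifiers were found in the reference name table, and 28 symbols turned into dates by a spreadsheet were looked up by identifier (all but 1 found).

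Members were chosen by the rule on CPM. Counts were tested with edgeR 4.0.16 (quasi-likelihood F test, filterByExpr, TMM, Benjamini-Hochberg over all genes tested, called at adjusted p under 0.05) in R 4.3.3, in GV oocytes on the 4 het libraries alone, because the WT libraries chose the members, and in embryos on all 15 libraries with 5 groups. The fit function was tested on simulated counts with known changes. In the 4-library design it recovered fewer of them than the pass mark first set, which was then lowered, so a member not called there is not shown to be unchanged. SEs derive from the F statistic. The members, the lists and the role groups were chosen with earlier results of these data known. Named are the 20 members with the highest mean WT translation CPM, per direction and comparison the called members of smallest p, at most 4 (the 2 smallest p where none was called), and further members chosen after their values were seen to complete role groups.

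Both fractions of a GV specimen carry 1 specimen number in the descriptions, which pairs them; deviations from group means correlated at 0.259 (het) and 0.0628 (WT) over 9582 genes. The pairing entered as an alternative, as did RLE scaling, no expression filter, DESeq2 1.42.0, all 8 GV libraries, only the groups compared, leaving out each library, and leaving out het 1-cell libraries 1 and 3. For 3 embryo comparisons the last was added after seeing the data. The counts cover all 37 members, of which 1 is not reported here by name or in the plots with gene names. Transcript features come from 1 transcript per gene (principal isoform, then longest coding part) of GENCODE M21 on GRCm38.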

Additional observations from a re-analysis of the deposited data

How the results depend on the processing

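The member list moved most with the rule: it held 95 genes at a fold of 3, 13 at 6, 20 at a minimum of 50 CPM, and 96 to 132 with 1 WT pair alone; a pseudocount of 1 CPM gave 34, a minimum of 10 CPM 46, and TMM-scaled CPM 38 with 33 shared. In het oocytes 34 members were called higher under RLE scaling, no filter, DESeq2 and all 8 GV libraries, 36 with the specimen pairing as a replicate block, and 30 to 34 with 1 library left out; 0 were called lower in each. From WT 1-cell to 2-cell, only the 2 groups in the fit gave 11 higher, and leaving out 1 library 3 to 4 higher and 4 to 6 lower. From het 1-cell to 2-cell, DESeq2 gave 7 higher, leaving out het 1-cell libraries 1 and 3 gave 1 lower, and leaving out 1 library gave 3 higher each time and 4 to 7 lower. Arrested against het 1-cell gave 2 higher with a replicate block and 0 higher and 0 lower with only the 2 groups or without het 1-cell libraries 1 and 3; DESeq2 gave 4 lower, and leaving out 1 library 1 to 5 higher and 1 to 2 lower. Arrested against het 2-cell gave 1 higher and 3 lower in DESeq2, and 0 lower with no filter, with the replicate block, with only the 2 groups and without het 1-cell libraries 1 and 3; leaving out 1 library gave 0 to 4 higher and 0 to 5 lower. Het against WT gave 0 members called at either stage in edgeR under every setting run. The cause of these shifts was not tested, beyond the fewer libraries that some settings hold. Embryo replicate numbers do not pair libraries (same-number deviations correlated between -0.43 and 0.26 over 7830 genes), and the block gave 4 members higher from WT 1-cell to 2-cell and moved all-gene counts to 1328 higher and 581 lower in arrested against het 1-cell and 572 higher in arrested against het 2-cell. Over all alternatives, the all-gene counts ran from 968 to 3215 higher and 232 to 1969 lower for het oocyte fractions (2119 and 914 as reported), 855 to 7050 and 1162 to 3782 from het 1-cell to 2-cell (5398 and 3295), 0 to 4365 and 0 to 1691 for arrested against het 1-cell, and 0 to 2029 and 0 to 2912 for arrested against het 2-cell. From WT 1-cell to 2-cell no all-gene count moved by over 1.5 times. Over the named calls and settings, 302 of het oocyte calls held and 4 were lost, 120 and 36 from WT 1-cell to 2-cell, 99 and 33 in het, 37 and 22 in arrested against het 1-cell, and 5 and 7 in arrested against het 2-cell; none reversed. Depth limits Ccnd2, Synpo, C130074G19Rik and Tspan18 in embryos, whose lowest groups held 0, 0, 3 and 13 counts.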
